A study of Mus musculus with 8 samples.

Results

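Genes that are widely used to recognise a fat cell were followed in RNAseq counts of sorted GFP+ cells, which were not sorted as fat cells. The 10 genes, out of 54532 in the count table, are *Adipoq*, *Plin1*, *Plin4*, *Lep*, *Retn*, *Cidec*, *Scd1*, *Cebpa*, *Car3* and *Acsl1*, and they were taken by name. The 8 libraries came from mice aged 8 months that all carried *Tie2e-cre* and the *mTmG* reporter, in which cells with a history of Cre activity carry membrane GFP (mG) and the others membrane Tomato. KO mice were *Tert* fl/fl and WT mice *Tert* +/+, and each of the 4 pairs held 1 KO and 1 WT library: subcutaneous adipose tissue (SAT) of mice fed high-fat diet (HFD), and SAT, visceral adipose tissue (VAT) and skeletal muscle of mice fed chow. The study sorted these cells as endothelial cells (EC), and *Tie2* promoters can also be active in blood cell lineages. Whether the cells of several mice were pooled is not given in the sources used here, nor is whether 1 mouse gave more than 1 of the chow samples, so the chow libraries may not be independent in the tests below. With 1 library per genotype in each pair, nothing replicates a KO to WT difference within a tissue and diet, and a test across pairs measures the spread between these libraries.

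Mature fat cells store triglyceride in 1 large lipid droplet. The droplet is coated by perilipins (*Plin1*, *Plin4*) and enlarged by the fusion protein encoded by *Cidec*. The cells secrete the hormones adiponectin (*Adipoq*), leptin (*Lep*) and resistin (*Retn*). *Cebpa* encodes a transcription factor that works with PPARγ in fat cell differentiation, and it also acts in myeloid cells and hepatocytes. *Scd1* desaturates fatty acids, *Acsl1* activates them with coenzyme A, and *Car3* encodes a carbonic anhydrase abundant in fat cells and slow muscle fibres. *Adipoq*, *Plin1*, *Lep* and *Cidec* are therefore close to specific for fat cells, while *Scd1*, *Cebpa* and *Acsl1* are transcribed in many cell types.

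The stretch upstream of the transcription start was printed for 5 members whose levels carry the tissue pattern described below: *Adipoq*, *Cidec* and *Lep*, which were at or near 0 outside VAT, *Cebpa*, which was highest in VAT, and *Acsl1*, which was highest in muscle. RefSeq promoter windows on GRCm38.p6 were found for 8 of the 10 members, and not for *Scd1* and *Car3*. The 250 bases before the start lie at chr16:23146286-23146535 (+ strand) for *Adipoq*, chr6:113435761-113436010 (− strand) for *Cidec*, chr6:29059971-29060220 (+ strand) for *Lep*, chr7:35119043-35119292 (+ strand) for *Cebpa* and chr8:46470787-46471036 (+ strand) for *Acsl1*, written 5′ to 3′ on the gene's strand. Capitals mark the letters TTGCNNAA (a core of sites bound by C/EBP factors) or TATAAA, searched on both strands.
Adipoq: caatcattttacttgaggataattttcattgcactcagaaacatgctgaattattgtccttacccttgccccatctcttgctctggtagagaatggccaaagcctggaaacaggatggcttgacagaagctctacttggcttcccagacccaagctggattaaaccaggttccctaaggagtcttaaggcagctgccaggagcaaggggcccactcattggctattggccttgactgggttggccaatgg
Cidec: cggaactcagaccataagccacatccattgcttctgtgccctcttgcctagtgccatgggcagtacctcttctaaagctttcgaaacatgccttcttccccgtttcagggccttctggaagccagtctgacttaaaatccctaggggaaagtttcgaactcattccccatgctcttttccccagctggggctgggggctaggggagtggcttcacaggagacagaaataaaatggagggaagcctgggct
Lep: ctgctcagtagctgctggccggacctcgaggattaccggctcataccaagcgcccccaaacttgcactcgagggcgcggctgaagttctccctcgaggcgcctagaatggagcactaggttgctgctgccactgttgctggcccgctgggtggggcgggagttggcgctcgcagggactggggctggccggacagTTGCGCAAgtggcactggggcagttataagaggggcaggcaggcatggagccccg
Cebpa: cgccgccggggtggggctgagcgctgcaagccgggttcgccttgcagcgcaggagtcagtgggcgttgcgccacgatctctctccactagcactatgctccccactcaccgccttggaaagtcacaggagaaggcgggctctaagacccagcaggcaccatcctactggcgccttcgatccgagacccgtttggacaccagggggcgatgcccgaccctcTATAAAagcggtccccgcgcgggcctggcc
Acsl1: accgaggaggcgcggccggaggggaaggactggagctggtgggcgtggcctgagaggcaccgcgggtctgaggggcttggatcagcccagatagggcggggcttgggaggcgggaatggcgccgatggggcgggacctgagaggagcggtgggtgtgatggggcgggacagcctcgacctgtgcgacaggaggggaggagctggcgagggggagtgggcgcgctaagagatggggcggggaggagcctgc
The C/EBP letters stood once upstream of *Lep*, at bases −55 to −48 from the start, and TATAAA once upstream of *Cebpa*, at −30 to −25. Among all 10 windows of the 8 members, TTGCNNAA was found in 3 members, *Plin1*, *Lep* and *Cidec*, the last in a second window that starts inside the gene, against 9.56% of all 32851 windows of the same length. TATAAA was found in 1 member window, against 12.4% of all windows. The PPARγ-type repeat AGGNCANAGGNCA, the half-site AGGTCA, which can lie inside it, and CACGTG were found in 0 of the 10 member windows, against 0.338%, 14.0% and 6.02% of all windows. These matches describe letters only.

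The libraries held between 6214269 and 18855772 counts, and 16034 to 24688 genes had at least 1 count. Levels are given as CPM (counts scaled for library size) after TMM scaling. A bound of 3 counts in a library, used as the floor, equals 0.184 to 0.434 CPM. *Tert*, the deleted gene, was lower in the KO library of 3 pairs: 0 counts against 114 (SAT on HFD), 11 against 70 (SAT on chow) and 7 against 24 (muscle). In VAT it had 3 counts in the library labelled WT and 9 in the library labelled KO, so that the VAT labels could not be checked by *Tert*, and every KO to WT direction for VAT below refers to the libraries so labelled. Marker lists were read in all libraries: 15 of 15 endothelial markers were above the floor in each, with a summed level of 424 to 933 CPM in SAT and 2465 to 3631 CPM in VAT and muscle. All 12 macrophage markers were also above the floor in each library, with a sum of 417 to 2164 CPM in SAT, 5331 to 5559 CPM in muscle and 14509 to 14719 CPM in VAT. The 12 neutrophil markers summed to 29053 to 33484 CPM in muscle and to 71.3 to 807 CPM elsewhere. In SAT the 10 T cell markers summed to 1944 to 3928 CPM and the 8 B cell markers to 1539 to 2511 CPM. The 13 preadipocyte and stromal markers summed to 2087 to 3342 CPM there. The T cell, B cell and stromal sums lay above the endothelial sum in each SAT library. The macrophage sum did so in the WT libraries of SAT only. In KO it was 417 CPM against 424 on HFD and 897 CPM against 933 on chow. The neutrophil sum lay below the endothelial sum in each SAT library.

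**Figure D1:**
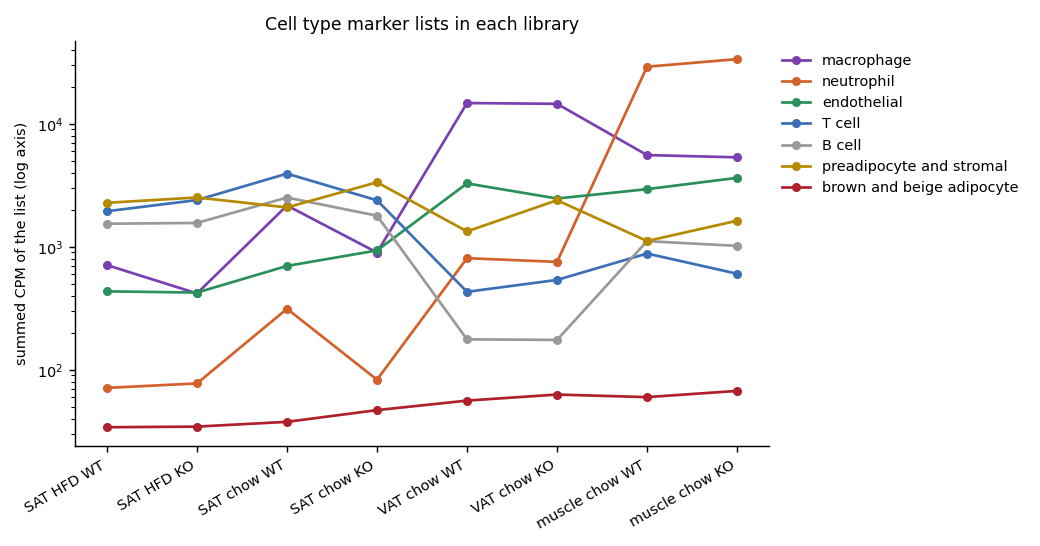
Summed CPM (log axis) of 7 lists of marker genes in each of the 8 libraries, 1 line per list. The macrophage list peaks in VAT at 14509 and 14719 CPM and the neutrophil list in muscle at 29053 and 33484 CPM, while the brown and beige adipocyte list stays between 34.1 and 67.4 CPM.

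The genes closest to specific for fat cells were counted in VAT, *Lep* above the floor in the WT library only, and were at or near the floor in the other tissues. *Adipoq* had 20 counts (2.22 CPM) in the WT and 29 counts (2.12 CPM) in the KO library of VAT. Outside VAT it had 6 counts in WT SAT on chow and 4 in WT muscle, and 0 in both SAT libraries on HFD, in KO SAT on chow and in KO muscle. The 2 VAT libraries were thus above all 6 others, and they held 87.6% of the *Adipoq* CPM summed over the 8 libraries.

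*Cidec*, the droplet fusion gene, had 45 counts (4.996 CPM) in WT and 31 (2.27 CPM) in KO VAT. It had 4 counts in KO SAT on chow, 1 in KO muscle and 0 in the other 4 libraries. The VAT share of its summed CPM was 95.8%.

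*Plin1*, which coats the droplet and restrains lipolysis, had 13 counts (1.44 CPM) in WT and 46 (3.36 CPM) in KO VAT. Elsewhere it had 5 counts in KO SAT on chow, 3 in KO muscle and 0 in the other 4 libraries, and 90.05% of its summed CPM lay in VAT. *Lep* was counted in VAT alone, with 8 counts (0.888 CPM) in WT and 3 (0.219 CPM) in KO, and was at 0 in the other 6 libraries, each of which allows a level of up to the 3-count floor. In SAT on HFD both *Lep* and *Adipoq* had 0 counts in each library.

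*Retn*, the resistin gene, was spread more widely. It had 20 counts (2.22 CPM) in WT and 10 (0.731 CPM) in KO VAT, 12 (0.743 CPM) in WT SAT on chow, 5 and 8 in WT and KO muscle, and 0 in KO SAT on chow and in both libraries on HFD. The WT library of SAT on chow thus lay just above the KO library of VAT, and these conditions overlapped for this gene.

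*Plin4*, a perilipin of small droplets that is also made in muscle fibres, was above the floor in 7 of the 8 libraries. It had 63 counts (6.99 CPM) in WT and 119 (8.70 CPM) in KO VAT, against 33 (4.77 CPM) and 25 (1.93 CPM) in SAT on HFD, 3 (0.186 CPM) and 41 (2.54 CPM) in SAT on chow, and 27 (1.66 CPM) and 42 (3.10 CPM) in muscle. Its 2 VAT libraries were the highest, and the ranges of the other 3 conditions overlapped one another.

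**Figure D2:**
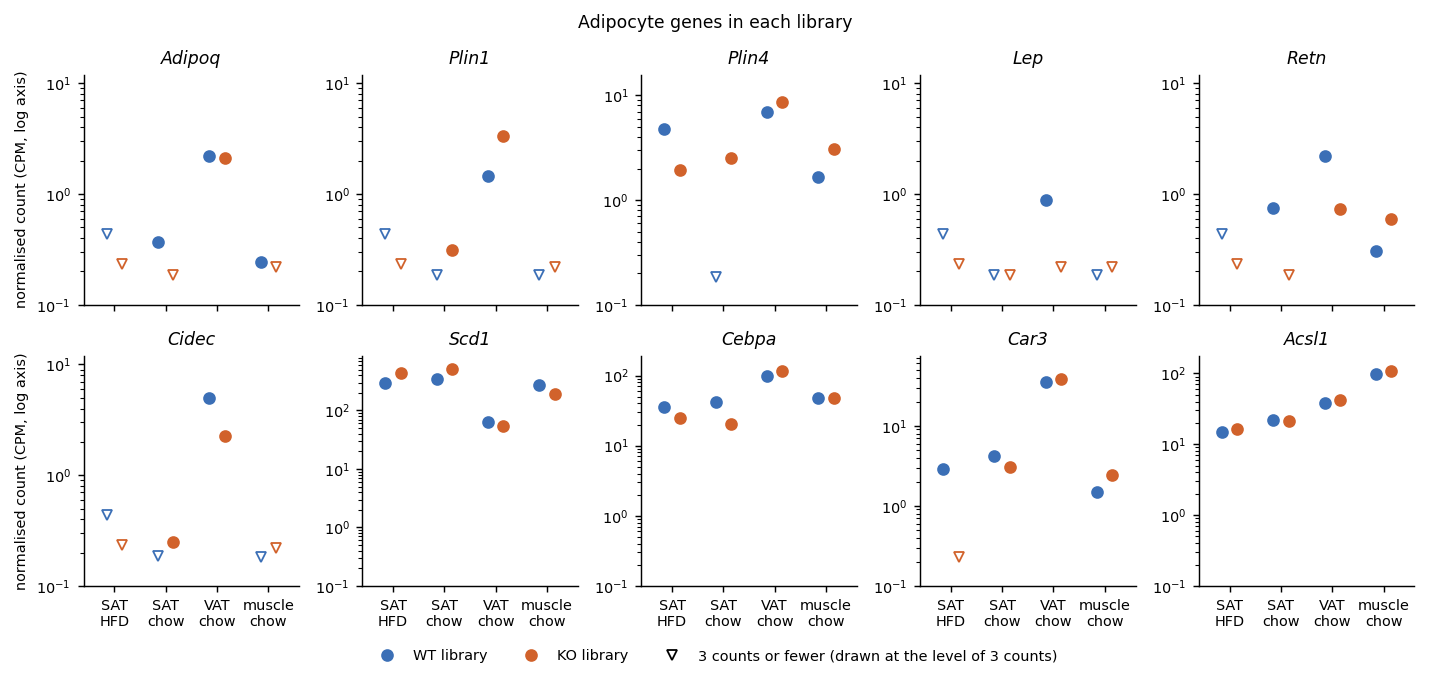
Level of each of the 10 members (CPM after TMM scaling, log axis) in the 4 tissue and diet conditions, WT in blue and KO in orange, with open triangles for 3 counts or fewer drawn at the level of 3 counts. *Adipoq*, *Plin1*, *Lep* and *Cidec* are filled points mainly in VAT, *Scd1* is lowest in VAT and *Acsl1* is highest in muscle.

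*Adipoq*, *Plin1*, *Lep* and *Retn* averaged under 10 counts over the 8 libraries and did not enter the test, which left 6 of the 10 members. A fit without the count filter was used as an alternative for these 4. For VAT over SAT on chow it gave adjusted p-values of 0.614 for *Adipoq*, 0.546 for *Plin1*, 0.821 for *Lep* and 0.925 for *Retn* (edgeR's quasi-likelihood test), so none passed 0.05 at this depth. *Cidec* did enter the test, with a mean of 10.1 counts that it reached only through its VAT counts.

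*Car3*, the carbonic anhydrase gene, was also highest in VAT, where its level exceeded those of the genes described above. It had 320 counts (35.5 CPM) in WT and 530 (38.7 CPM) in KO VAT. In SAT on chow it had 68 (4.21 CPM) and 49 (3.04 CPM), in SAT on HFD 20 (2.89 CPM) and 0, and in muscle 24 (1.47 CPM) and 33 (2.43 CPM). The 2 VAT libraries lay far above all others, SAT on chow followed, and SAT on HFD and muscle overlapped. The 14 markers of skeletal muscle fibres, cells that can also make *Car3*, summed to 153 CPM in WT VAT and 12.9 CPM in KO VAT, and to 12.7 to 73.0 CPM in the other 6 libraries. The part of such cells in the *Car3* level was not tested.

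The number of counts per *Adipoq* count was compared between the 2 VAT libraries. There were 16.0 *Car3* counts per *Adipoq* count in WT VAT (95% counting interval 10.2 to 26.6) and 18.3 in KO VAT (12.6 to 27.6). For *Plin4* the ratios were 3.15 (1.88 to 5.50) and 4.10 (2.72 to 6.39). *Cidec* gave 2.25 (1.30 to 4.02) and 1.07 (0.623 to 1.84), *Plin1* gave 0.650 (0.297 to 1.37) and 1.59 (0.9755 to 2.62), and in all 4 genes the intervals of the 2 libraries overlapped.

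The 3 widely expressed members, *Scd1*, *Cebpa* and *Acsl1*, each had a tissue order of its own. *Cebpa*, which encodes the differentiation factor C/EBPα, was highest in VAT, with 98.5 CPM in WT and 117 CPM in KO (887 and 1602 counts). It stood at 48.3 and 48.1 CPM in muscle, 42.3 and 20.3 CPM in SAT on chow, and 36.0 and 24.8 CPM in SAT on HFD. The mean was 108 ± 13.1 CPM in VAT, 48.2 ± 0.127 in muscle, 31.3 ± 15.6 in SAT on chow and 30.4 ± 7.93 in SAT on HFD (SD, n = 2, 1 WT and 1 KO), and the last 2 overlapped.

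*Scd1*, which makes monounsaturated fatty acids, ran the other way. It was at 63.6 and 53.3 CPM in WT and KO VAT (573 and 729 counts), at 277 and 188 CPM in muscle, at 351 and 514 CPM in SAT on chow, and at 298 and 436 CPM in SAT on HFD. VAT lay below every other library, and the 2 SAT conditions overlapped.

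*Acsl1*, which encodes the acyl-CoA synthetase, was highest in muscle, with 99.2 CPM in WT and 107 CPM in KO (1617 and 1458 counts). It stood at 38.4 and 42.3 CPM in VAT, 22.2 and 21.5 CPM in SAT on chow, and 14.7 and 16.4 CPM in SAT on HFD. WT and KO lay close together in each condition and the 4 conditions did not overlap, so that *Acsl1* was ordered muscle, VAT, SAT on chow and SAT on HFD in both genotypes.

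Per kilobase of gene length, *Scd1* was first of the 10 members in the 6 libraries of SAT and muscle, with 38.8 to 106 CPM per kb, and *Cebpa* second. In both VAT libraries *Cebpa* was first, with 37.4 and 44.4 CPM per kb, and *Scd1* held 17.8% and 14.0% of the members' summed CPM per kb, against 56.1% to 90.3% in the other 6. In WT VAT *Cidec* stood at 2.69 and *Adipoq* at 1.61 CPM per kb, both below *Acsl1* at 3.66, so that even in VAT the fat cell specific members were the lower part of the order.

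The tissue contrasts were tested across all genes with edgeR's quasi-likelihood test, with each tissue and diet pair and the genotype in the model. Between VAT and SAT on chow, 849 of 16971 tested genes passed an adjusted p of 0.05 (5.0%), 3.13% higher and 1.87% lower in VAT. Of the 6 members tested, *Cebpa* was higher in VAT and *Scd1* lower. *Cebpa* was higher by 1.85 log2 (SE 0.39, adjusted p = 0.0386) and *Scd1* fell by 2.88 log2 (SE 0.41, adjusted p = 0.0118), each in both VAT libraries against both SAT libraries. Both calls need all VAT libraries: without WT VAT the adjusted p was 0.0906 for *Scd1* and 0.0956 for *Cebpa*, and without KO VAT 0.119 and 0.181. *Cebpa* also lost the call without KO SAT on HFD (0.0591), WT muscle (0.0593) or KO muscle (0.0504). Its log2 difference ran from 1.40 without KO SAT on chow to 2.53 without WT SAT on chow, and that of *Scd1* from −3.02 to −2.44 over the same 8 fits.

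*Car3* stood 3.42 log2 higher in VAT than in SAT on chow (SE 1.25, adjusted p = 0.171) and did not pass. Leaving out either SAT library on HFD changed whether it passed, and the reason was not tested. Over all fits without 1 library, its log2 difference ran from 2.90 (without KO VAT) to 4.14 (without WT VAT). It also passed without the filter on low counts (0.000403), where 7.09% of 29627 genes passed. In DESeq2's Wald test it passed too (0.0185), where 2289 of 16971 genes did. In edgeR *Plin4* was fitted 2.81 log2 higher in VAT (SE 1.39, adjusted p = 0.303) and *Acsl1* 0.88 log2 (SE 0.30, adjusted p = 0.142). Neither passed. *Cidec*, with 4 counts in 1 of the SAT libraries, reached its mean of 10.1 counts only through VAT. Its fitted 5.46 log2 (SE 2.56, adjusted p = 0.288) did not pass either, and could not serve as support for a VAT difference.

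Other cell type lists moved in the same contrast as *Cebpa* and *Scd1*. In VAT, 11 of 12 macrophage markers and 10 of 15 endothelial markers were higher than in SAT on chow, and 8 of 8 B cell and 8 of 10 T cell markers were lower. The 12 markers of mammary and keratin epithelium summed to 280 and 362 CPM in SAT on chow and to 8.44 and 8.62 CPM in VAT, and 5 of the 9 tested were lower in VAT. The part of these cells in the levels of *Cebpa* and *Scd1* was not tested, and in sorted bulk libraries fewer cells of a type and less RNA per cell cannot be told apart.

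Between muscle and fat on chow, taken as muscle against the mean of SAT and VAT, 1.62% of the 16971 genes passed, 1.25% higher and 0.371% lower in muscle. *Acsl1* was the 1 member of 6 that passed: it was 1.80 log2 higher in muscle (SE 0.24, adjusted p = 0.0140), in both muscle libraries against all 4 fat libraries. Without WT VAT, KO VAT, WT muscle or KO muscle its adjusted p was 0.0757, 0.0878, 0.280 and 0.370, while the log2 difference stayed between 1.75 and 1.88. Beside it, 12 of 12 neutrophil markers were higher and 6 of 12 macrophage markers lower in muscle, and their part in the *Acsl1* level was not tested.

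The log2 difference of *Car3* between muscle and fat was −2.49 (SE 1.14, adjusted p = 0.544). Without the filter on low counts, where 2.98% of 29627 genes passed, its adjusted p was 0.0193. That of *Scd1* was 0.56 (SE 0.32, adjusted p = 0.750), that of *Cebpa* −0.25 (SE 0.33, adjusted p = 1) and that of *Plin4* −0.39 (SE 1.13, adjusted p = 1), and none of them passed. *Cidec* had 0 and 1 counts in muscle, at or below the floor, and no fold is given.

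Between HFD and chow in SAT, 0 of the 16971 genes passed (0.0%) in edgeR, where 1577 had an unadjusted p under 0.05, and 246 passed in DESeq2. Of the 6 members, 0 passed in either tool and 0 had an unadjusted p under 0.05. The log2 difference of *Acsl1*, HFD over chow, was −0.49 (SE 0.30, adjusted p = 0.656), with both HFD libraries below both chow libraries. It was −1.67 for *Car3* (SE 1.29), and ran from −8.63 without the WT library on HFD, which leaves the KO library with 0 counts alone, to −0.28 without the KO library. It was 1.76 for *Plin4* (SE 1.44), and ran from 0.42 without the WT library on HFD to 4.10 without the KO library on chow. For *Scd1* it was −0.24 (SE 0.38) and for *Cebpa* −0.02 (SE 0.38), values that turned positive with library totals (0.046 and 0.29) and, for *Cebpa*, with DESeq2 size factors (0.23). The adjusted p-values of these 4 genes were 0.713 to 0.994, and the median over all genes in this contrast was −0.32. *Cidec* was at 0 in both HFD libraries and had 0 and 4 counts on chow, and *Adipoq*, *Plin1*, *Lep* and *Retn* were at 0 in both HFD libraries.

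**Figure D3:**
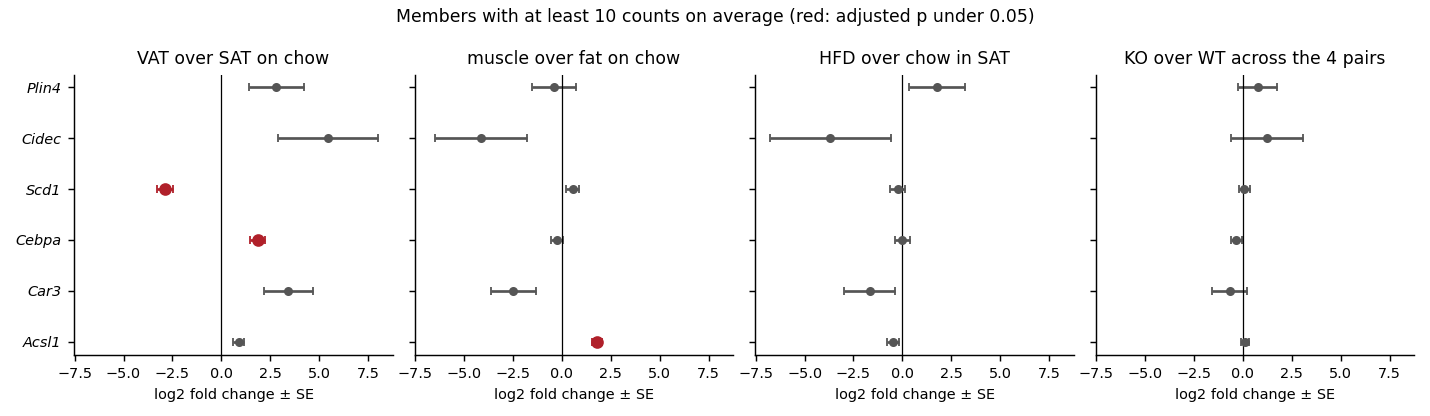
Log2 fold change with its SE for the 6 members that averaged at least 10 counts, in 4 contrasts fitted with edgeR over all 8 libraries, with red for an adjusted p under 0.05. *Scd1* at −2.88 and *Cebpa* at 1.85 in VAT over SAT, and *Acsl1* at 1.80 in muscle over fat, are the 3 red points. The *Cidec* points in muscle over fat and HFD over chow rest on muscle and HFD libraries at or below the floor and are not read as folds.

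KO and WT did not separate across the 4 pairs for any of the 6 members tested. *Adipoq*, *Plin1*, *Lep* and *Retn* did not enter this test. Without the count filter their SE was 2.26 to 3.21 log2, too wide to decide. In the test over the pairs, 1 of 16971 genes passed (0.00589%), with 277 at an unadjusted p under 0.05, and 0 of the 6 members tested passed in edgeR or in DESeq2, where 19 genes passed. *Scd1* differed by 0.07 log2 (SE 0.27), *Acsl1* by 0.09 (SE 0.21), *Cebpa* by −0.33 (SE 0.27), *Car3* by −0.68 (SE 0.91), *Plin4* by 0.76 (SE 1.001) and *Cidec* by 1.21 (SE 1.84), KO over WT, each with an adjusted p of 0.9996 in edgeR's test. The median of the 6 was 0.08 log2 and that of all genes 0.03.

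Within a pair, the log2 ratio of KO to WT is given with a 95% counting interval, which covers counting error only, and a gene is called beyond 2-fold when the whole interval lies there. This happened for 29.5% of the genes with more than 3 counts in SAT on HFD, 28.0% in SAT on chow, 6.91% in VAT and 6.66% in muscle. The members did so in 1 of 5 (SAT on HFD), 2 of 9 (SAT on chow), 0 of 10 (VAT) and 0 of 7 (muscle). Their median log2 ratio was −0.54, −0.04, 0.03 and 0.11 in this order. Intervals on 1 side of 0 were common among all genes with more than 3 counts. The interval spanned 0 for 4549 of 17913 genes in SAT on HFD and 5819 of 21995 in SAT on chow. It did so for 10733 of 21419 in VAT and 10746 of 22181 in muscle. Among the members it spanned 0 in 1 of 5, 4 of 9, 5 of 10 and 4 of 7, in the same order.

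In SAT on HFD, *Scd1* was higher in KO, with a log2 ratio of 0.55 (0.48 to 0.62), and *Cebpa* (−0.54, −0.78 to −0.29) and *Plin4* (−1.28, −2.12 to −0.51) were lower, while the *Acsl1* interval spanned 0 (0.15, −0.20 to 0.51). *Car3* went from 20 counts in WT, which is 12.5-fold above the KO floor of 3 counts, to 0 in KO, with an interval that ended at −3.21 log2. The same drop to 0 was seen in 37.2% of the 2384 genes whose WT count in this pair lay between 14 and 30. *Adipoq*, *Plin1*, *Lep*, *Retn* and *Cidec* had 0 counts in both libraries.

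In SAT on chow, *Scd1* was again 0.55 log2 higher in KO (0.50 to 0.60) and *Cebpa* lower (−1.06, −1.25 to −0.87). *Plin4* rose from 3 to 41 counts, a log2 ratio of 3.57 (2.13 to 6.11), and *Retn* went from 12 counts, 3.99-fold above the KO floor, to 0, with an interval that ended at −1.47 log2. Of 2276 genes whose KO count lay between 28 and 61, 20.3% had a WT count as low as that of *Plin4*, and of 2067 genes whose WT count lay between 8 and 18, 7.4% were at 0 in KO. *Adipoq* went from 6 counts to 0, with an interval that ended at −0.23 log2, and 326 of 2179 genes whose WT count lay between 4 and 9 were at 0 in KO as well. *Plin1* and *Cidec* had 0 in WT and 5 and 4 in KO, with intervals that spanned 0, as did those of *Car3* (−0.47, −1.03 to 0.08) and *Acsl1* (−0.04, −0.26 to 0.17).

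Marker lists moved beside *Cebpa* in the SAT pairs. From WT to KO, the macrophage list stood at 2164 and 897 CPM in SAT on chow and at 709 and 417 CPM in SAT on HFD. The neutrophil list stood at 313 and 83.1 CPM on chow and at 71.3 and 77.5 CPM on HFD, and the 13 preadipocyte and stromal markers at 2087 and 3342 CPM on chow and at 2276 and 2515 CPM on HFD. The T cell list stood at 3928 and 2385 CPM on chow and at 1944 and 2396 CPM on HFD. The part of these cells in the *Cebpa* ratios was not tested.

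In VAT, where all 10 members were counted in both libraries, *Adipoq* did not differ beyond counting error, with a log2 ratio of −0.07 (−0.94 to 0.83). *Plin1* was 1.19 log2 higher in the library labelled KO (0.31 to 2.23) and *Cebpa* 0.25 log2 higher (0.13 to 0.37). *Retn* (−1.55, −2.86 to −0.44), *Cidec* (−1.13, −1.85 to −0.45) and *Scd1* (−0.26, −0.42 to −0.10) were lower in it. Both droplet genes near to specific for fat cells, *Plin1* and *Cidec*, thus had intervals on opposite sides of 0 between the same 2 libraries. The intervals of *Lep* (−1.82, −4.57 to 0.04), *Plin4* (0.31, −0.14 to 0.78), *Car3* (0.12, −0.08 to 0.33) and *Acsl1* (0.14, −0.06 to 0.34) spanned 0.

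In muscle, *Scd1* was lower in KO (−0.56, −0.63 to −0.49), and *Plin4* (0.89, 0.17 to 1.66) and *Acsl1* (0.11, 0.011 to 0.22) were higher. *Cebpa* (−0.01, −0.16 to 0.15), *Car3* (0.71, −0.08 to 1.55) and *Retn* (0.87, −0.85 to 2.90) had intervals that spanned 0. *Adipoq* had 4 counts in WT and 0 in KO, and its interval reached above 0 (upper end 0.86). No member had its intervals on the same side of 0 in all 4 pairs. Those of *Scd1* excluded 0 in all 4, above it in both SAT pairs and below it in VAT and muscle.

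**Figure D4:**
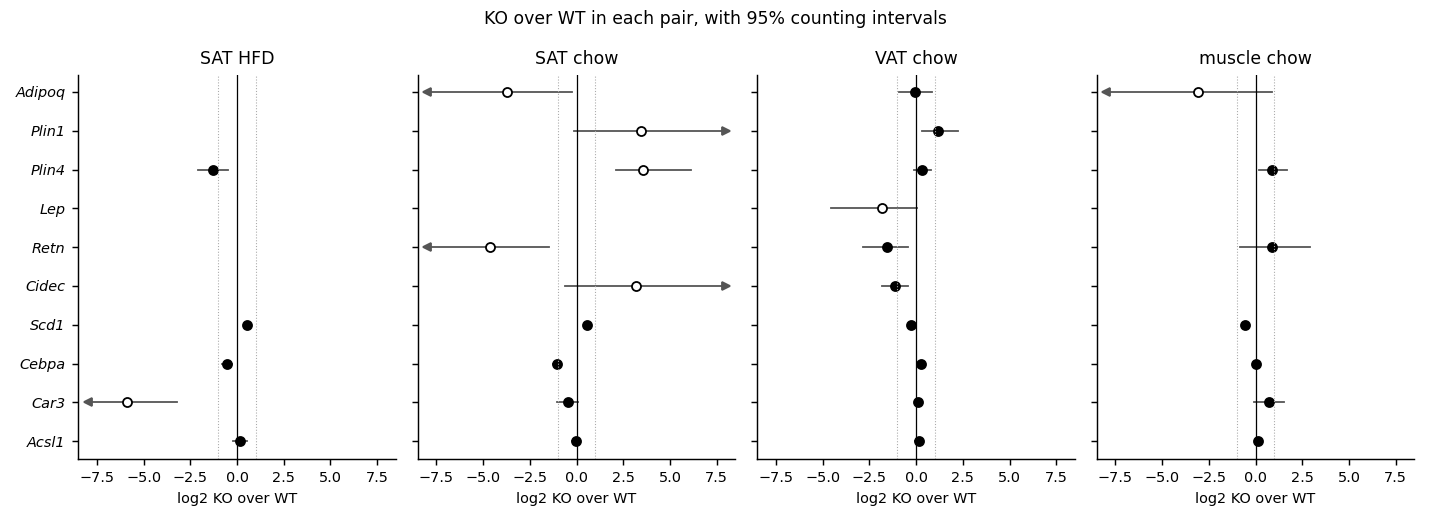
Log2 ratio of KO to WT with 95% counting intervals for the 10 members in each pair, with open points where 1 library had 3 counts or fewer, arrows for intervals without an end, dotted lines at 2-fold, and no point where both libraries had 3 counts or fewer. *Scd1* lies at 0.55 in both SAT pairs and at −0.26 and −0.56 in VAT and muscle, and *Adipoq* lies at −0.07 in VAT.

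The other genes of the fat cell programme were read from 8 lists, which hold 119 genes beside the members, 95 of them tested. In VAT over SAT on chow 12 of the 95 were higher and 0 lower, with a median of 0.92 log2. Over all genes tested 3.13% were higher and 1.87% lower, with a median of −0.13. In the same contrast 11 of 12 macrophage and 10 of 15 endothelial markers were higher in VAT. The part of these cells in the levels of the listed genes was not tested. DESeq2 called 27 of the 95 in either direction, beside 2289 of all 16971 genes. In muscle over fat 3 were higher and 0 lower, beside 1.25% and 0.371% of all genes. DESeq2 called 10 there, beside 846 of all 16971 genes. In that contrast 12 of 12 neutrophil markers were higher in muscle, and their part in the listed genes was not tested either. The lists described next count their members too, and their calls are those of edgeR. For VAT over SAT, DESeq2 called, in either direction, 4 of 11 lipid droplet, 9 of 16 uptake and 5 of 18 transcription factor genes. It also called 2 of 11 adipokine, 5 of 12 lipolysis and 4 of 19 synthesis genes. Over all 16971 genes it called 2289 in this contrast. In edgeR 0 of the 95 passed in HFD over chow and in KO over WT. There 16 and 3 had an unadjusted p under 0.05, beside 1577 and 277 of all 16971 genes. DESeq2 called 3 and 0 of the 95, beside 246 and 19 of all 16971.

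Of the lipid droplet proteins, 3 of 11 tested passed, all higher in VAT. *Plin2*, the perilipin of most cell types other than fat cells, went from 52.1 and 76.5 CPM in SAT on chow (WT and KO) to 509 and 869 CPM in VAT, which is 3.42 log2 (SE 0.51, adjusted p = 0.0133). *Hilpda*, which inhibits triglyceride lipase, was 2.17 log2 higher and *Cav1*, the caveolar coat gene, 2.10 log2 higher. The droplet members *Plin4* and *Cidec* did not pass in the same contrast, and *Plin1* had too few counts to be tested.

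Of the 16 genes of lipid and glucose uptake, all tested, 4 passed and all were higher in VAT: the fatty acid receptor gene *Cd36* (3.34 log2), the lipase gene *Lpl* (2.21 log2), *Gpihbp1* (2.11 log2), which holds this lipase on capillary endothelium, and the fatty acid binding protein gene *Fabp4* (2.09 log2). *Fabp4*, often taken as a fat cell gene but also made in EC and macrophages, had 409 and 745 CPM in VAT and was still at 71.0 to 162 CPM in SAT and 309 to 386 CPM in muscle, where *Adipoq* was at or near 0.

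Of the 18 adipogenic transcription factors, 4 passed, all higher in VAT, *Cebpa* among them. *Pparg*, the partner of *Cebpa*, went from 6.75 and 8.87 CPM in SAT on chow to 40.2 and 39.2 CPM in VAT (2.37 log2, SE 0.46, adjusted p = 0.0288), and stood at 9.33 and 11.8 CPM in muscle. *Cebpb* was 2.17 log2 and *Cebpd* 2.10 log2 higher in VAT.

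Of the adipokine list, *Metrnl* (2.90 log2) and *Lpl* were higher in VAT among 11 tested. *Cfd*, the adipsin gene, had 50 and 70 counts in VAT against 0 to 16 in the other 6 libraries. Not all listed genes did so. *Rbp4* had 4 and 19 counts in VAT (WT and KO) and 39 in WT SAT on HFD. *Lgals12* had 1 and 7 counts in VAT and 4 and 9 in SAT on chow. In the lipolysis list 1 of 12 passed, *Mgll* (2.19 log2). Of 19 tested genes of fatty acid and triglyceride synthesis, *Scd1* was the 1 that passed in edgeR, and it was lower in VAT, while 12 of the 19 had a fitted difference above 0 and the list's median was 0.20 log2. Of the other mature adipocyte genes 0 of 13 passed in edgeR, with *Aoc3* at 2.37 log2 (adjusted p = 0.0859). Of these 13, 4 had an unadjusted p under 0.05, beside 3517 of all 16971 genes. Of the brown and beige list 0 of 5 passed, with 0 at an unadjusted p under 0.05. DESeq2 called 4 and 0 of these genes, beside 2289 of all 16971. *Ucp1*, the thermogenic uncoupling protein, had 10 and 4 counts in VAT, 2 in KO SAT on chow and 0 in the other 5 libraries.

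Of the 3 listed genes that passed with *Acsl1* as higher in muscle, *Dgat2*, which completes triglyceride synthesis, was 2.70 log2 higher (SE 0.31, adjusted p = 0.00677), *Abhd5*, the coactivator of triglyceride lipase, 2.38 log2 (SE 0.40, adjusted p = 0.0331), and the fatty acid transporter gene *Slc27a4* 2.07 log2 (SE 0.26, adjusted p = 0.00987). *Dgat2* had 107 and 74.1 CPM in muscle against 4.87 to 16.8 CPM in the 6 fat libraries.

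*Adipoq*, *Cebpa*, *Acsl1* and *Car3* were set against all other genes that averaged at least 50 counts, 12364 genes, by the root mean square (RMS) difference of their log2 CPM profile over the 8 libraries after each profile was centred. The 5 genes nearest to *Adipoq* were *C1qa*, *C1qb* and *C1qc*, which encode the chains of complement C1q, *Mgl2*, a lectin gene, and *Csf1r*, the receptor gene for the macrophage growth factor CSF1, at RMS differences of 0.74 to 0.90 log2. *C1qa* had 913 and 1074 CPM in VAT and 24.0 to 125 CPM in the other 6 libraries. *Adipoq* was at 0 in 4 of the 8 libraries, and its distances there depend on the prior count of 0.5.

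The profiles nearest to *Cebpa* were *Dnase1l1*, *Stk3*, *Daglb*, *Hexa* and *St3gal4* (RMS 0.22 to 0.27). Those nearest to *Acsl1* were *Dstn*, *Slc22a15*, *Mmp25*, *Sfxn5* and *Ogfrl1* (0.21 to 0.23). Those nearest to *Car3* were *Ang*, *Arg1*, *Mrm2*, *Ly96* and *Trim30c* (0.38 to 0.65), and *Car3* and these 5 genes all had 0 counts in KO SAT on HFD, where the match depends on the prior count.

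**Figure D5:**
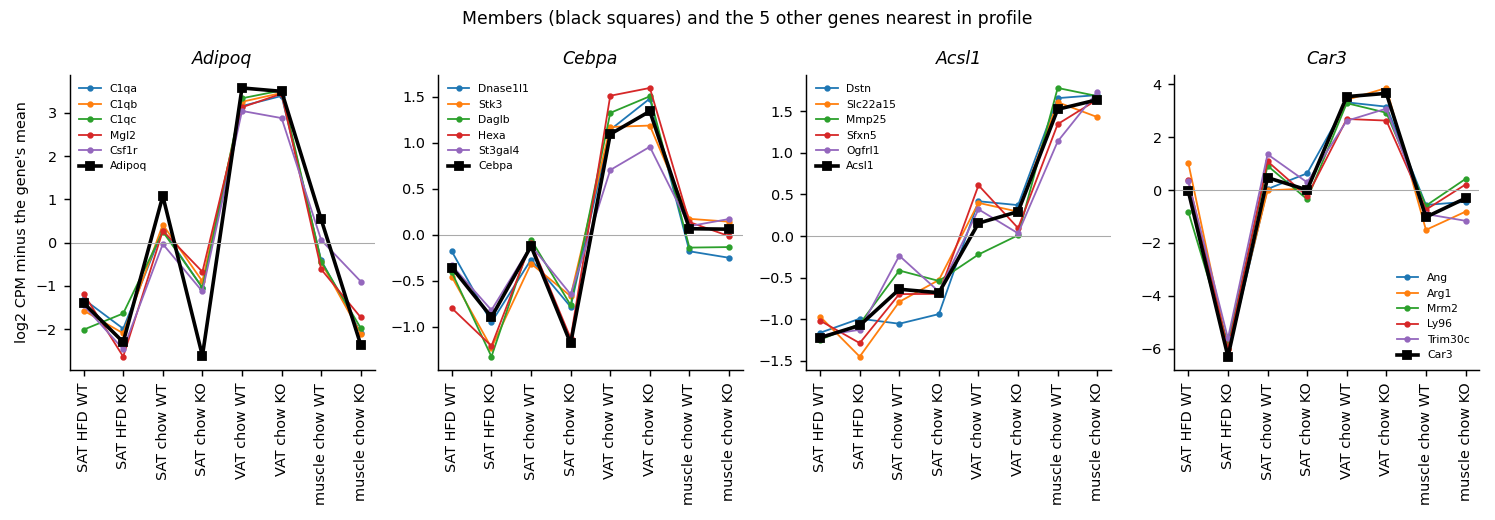
Log2 CPM minus the gene's own mean over the 8 libraries for *Adipoq*, *Cebpa*, *Acsl1* and *Car3* (black squares) and the 5 other genes nearest to each in profile (coloured lines). *Adipoq* and its 5 nearest genes peak in the 2 VAT libraries, and *Acsl1* and its 5 nearest genes in the 2 muscle libraries.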

How the data were processed

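RNAseq of sorted GFP+ cells was analysed in 8 libraries. Per the labels, RNA was isolated on columns and libraries were made with a SMARTER mRNA kit, and the submitters' processing notes name HISAT2 2.0.5 and GRCm38. The counting program, its annotation and its use of strand are not given in the sources used here, so reads of overlapping genes cannot be told apart. The authors deposited whole-number counts per Ensembl gene, with no normalization, and a gene length (other columns: symbol, position, biotype). No reads were processed here.

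Counts were scaled by TMM (edgeR 4.0.16, R 4.3.3). Genes averaging at least 10 counts over the 8 libraries were fitted with edgeR's quasi-likelihood test (robust), with each tissue and diet pair as a block and genotype as a term, since the count model of the study is not given in the sources used here, and p-values were adjusted by Benjamini-Hochberg at 0.05 over all genes tested. The pairing comes from tissue and diet in the labels, and pairs are not replicates of 1 condition. Within a pair, log2 ratios used a prior count of 0.5 and exact conditional binomial (Clopper-Pearson) 95% intervals, and no test. Reads without molecular identifiers are not independent molecules, so intervals and floors cover counting error only. With 0 counts, 3 counts was the floor.

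The members and all lists were chosen with earlier results of these data known. All 10 members were described. From each list, up to 4 genes that passed per contrast were eligible by size of change, or, where none passed, the 2 of lowest p. *Cfd*, *Rbp4*, *Lgals12* and *Ucp1* fall outside that rule and were chosen after their values were seen. Alternatives were DESeq2 1.42.0 size factors and Wald test, library totals, no count filter, no genotype term, no block, a prior count of 5, the mean over members, and leaving out each library or pair. The scripts were tested on simulated data. Promoter windows come from RefSeq (GRCm38.p6).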

Additional observations from a re-analysis of the deposited data

Results flagged for a closer look

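*Scd1*, *Cebpa* and *Plin4* moved in opposite directions between KO and WT in different pairs, with counting intervals on opposite sides of 0. With 1 library per genotype in each pair, this difference between tissues was not tested. Intervals on 1 side of 0 were common among all genes with more than 3 counts. They spanned 0 for 4549 of 17913 genes in SAT on HFD and 5819 of 21995 in SAT on chow. In VAT they did so for 10733 of 21419 and in muscle for 10746 of 22181. *Scd1* was higher in KO by 0.55 log2 in SAT on HFD and by 0.55 in SAT on chow, and lower at −0.26 in VAT and −0.56 in muscle. *Cebpa* was lower in KO at −0.54 in SAT on HFD and −1.06 in SAT on chow, and higher by 0.25 in VAT. *Plin4* was lower at −1.28 in SAT on HFD, and higher by 3.57 in SAT on chow, where WT had 3 counts, and by 0.89 in muscle. In SAT, 28.0% to 29.5% of the genes with more than 3 counts lay beyond 2-fold in a pair, against 6.66% to 6.91% in VAT and muscle. The opposite direction of *Cebpa* rests on the VAT pair alone, since its muscle interval spanned 0, and with the VAT labels exchanged it would be lower in KO in both SAT pairs and in VAT. For VAT, the direction refers to the libraries as labelled, since *Tert* had 3 counts in the one labelled WT and 9 in the one labelled KO.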

How the results depend on the processing

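The calls of *Scd1* and *Cebpa* in VAT over SAT and of *Acsl1* in muscle over fat held under DESeq2 size factors, library totals, no filter, DESeq2's Wald test and no genotype term, and each was lost on leaving out certain single libraries. No member was called in KO over WT or HFD over chow under any alternative. The number of genes called moved more. Without the filter on low counts it was 42 for KO over WT, 883 for muscle over fat, 2100 for VAT over SAT and 317 for HFD over chow, and with DESeq2's Wald test 19, 846, 2289 and 246. With no replicate block, KO over WT gave 0 calls, with 124 genes at an unadjusted p under 0.05. Leaving out 1 library or pair gave 0 to 2 calls for KO over WT, and leaving out 1 library gave 25 to 797 for muscle over fat (25 without KO muscle, 797 without KO SAT on chow), 108 to 3510 for VAT over SAT (108 without WT VAT, 3510 without KO SAT on chow) and 0 to 441 for HFD over chow (441 without KO SAT on chow). The causes were not tested. DESeq2 size factors moved the VAT over SAT split from 531 higher and 318 lower to 639 and 248.

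Some values that were not called changed sign. With no block, *Cidec* was −0.93 and *Car3* 0.006 in KO over WT. In HFD over chow, *Cebpa* was 0.23 with DESeq2 size factors, 0.29 with library totals and 0.23 with DESeq2's Wald test, and *Scd1* 0.046 with library totals. Leaving out 1 library or pair gave −0.014 to 1.45 for *Plin4*, −0.067 to 0.94 for *Cidec*, −0.093 to 0.28 for *Scd1*, −1.30 to 0.12 for *Car3* in KO over WT across the 4 pairs, and −0.87 to 0.95 for *Plin4*, −0.47 to 0.054 for *Cebpa* in muscle over fat on chow, and −4.62 to 0.041 for *Cidec*, −0.59 to 0.20 for *Scd1*, −0.45 to 0.68 for *Cebpa* in HFD over chow in SAT. The ranges of *Cidec* hold no fit without WT VAT, KO VAT or the VAT pair, where it fell below the count filter. Its main value in KO over WT was 1.21, and in SAT it had counts only in KO on chow, where it had 4. For the pairs, the members' mean was −1.40 in SAT on HFD and −0.28 in VAT in place of the medians of −0.54 and 0.03, and library totals moved the median in SAT on chow to 0.18. No fit gives a test within a pair, and at 0 to 12 counts a library can show only large differences in *Adipoq*, *Plin1*, *Lep*, *Retn* or *Cidec* outside VAT.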
